A study of Homo sapiens with 6 samples.

Results

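The comparison described here set chromatin accessibility in the established human melanoma line A375 after 18 h of recombinant HMGA1 against the same line left untreated (mock). Each group had 2 ATAC-seq libraries, and another 2 libraries came from cells given the protein for 2 h. All cells were frozen after treatment, and the sources used here give neither the dose of the protein nor the passage of the line. The comparison took in every region of the deposited 18 h over mock table, counted once where a region was listed under more than 1 gene name, which gave 226434 of the 226920 regions found in the series. The labels speak of biological replicates without naming separate cultures. The p-values therefore rest on the spread of these libraries alone, which may in part be technical.

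ATAC-seq uses the Tn5 transposase to insert sequencing adapters into open DNA, so that a region with more insertions is counted as more accessible. HMGA1 is a small non-histone protein of chromatin that attaches to AT-rich DNA through short AT-hook motifs, bends it, and helps transcription factors assemble at enhancers. It is abundant in embryonic cells and in many tumours, and the series concerns its entry into melanoma cells from outside. Distal accessible regions of adherent tumour cells are commonly bound by AP-1, a dimer of FOS and JUN family proteins, and by TEAD, the DNA-binding partner of YAP, and both respond to serum, adhesion and stress.

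The deposited values are fold changes with their standard errors (SE), and 0 columns hold the value of 1 library, so neither the spread of single libraries nor their depth is known. The mean signal of a region is its normalised read count averaged over the 6 libraries. The authors left regions with a mean signal under 101 out of the adjustment for multiple tests, which left 55341 regions tested and 171093 not tested. The median SE of a tested region was 0.16 on the log2 scale. Of 7 melanocyte markers, 4 had a region within 1 kb of the gene start (MITF, S100B, PMEL and SOX10, with mean signals of 694, 353, 298 and 63.8), while MLANA, TYR and DCT had none. Of 15 markers of keratinocytes, fibroblasts, endothelium and immune cells, 6 had such a region, and among those PDGFRB had a mean signal of 448 and the others at most 69.4.

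After 18 h of recombinant HMGA1, accessibility was lower than in mock at 64 regions and higher at 3 in the authors' deposited table (DESeq2, Wald test, adjusted p under 0.05). The lower regions were 0.116% of those tested and the higher ones 0.00542%. Most were distal elements, and the genes they were named for include LIMD1, TGFBI, SMAD3, CCND1, PXN, HSPG2, COL1A1 and MYC as well as KIF2B, THRB and USP24. The losses were small, with a median log2 fold change of -0.56 (a 1.48-fold loss) and a range from -1.62 to -0.30 in the authors' deposited table, and 4 regions lost 2-fold or more. The 64 regions carried 62 gene names, CUEDC1 and LGR6 having 2 regions each, and lay on 19 chromosomes. Chromosome 1 held 16 of them (25% of the lower calls, against 11.6% of the tested regions).

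The distribution of the tested regions was shifted in the same direction. Of the tested regions, 69.5% had a negative log2 fold change, with a median of -0.07 and a 10th and 90th percentile of -0.28 and 0.12 in the authors' deposited table. At an unadjusted p under 0.05, 4052 regions (7.32%) were lower and 315 (0.569%) higher. Centring the fold changes on the median tested region moved every value up by 0.07, and centring them within 20 bins of mean signal removed the shift at each signal level. With either centring 8 regions were called lower and 3 higher, so that the lower share of the calls went from 95.5% to 72.7%. In the signal bins these calls were 0.0145% and 0.00542% of the regions tested. At an unadjusted p under 0.05 the centred values were lower at 1730 regions (3.13%) and higher at 849 (1.53%). The 8 lower calls after centring in bins were all among the 64 and were named for LIMD1, KIAA1683, TGFBI, KIF2B, MTRNR2L1, KAZN, CCND1 and RELL1. Centring on the median gave 8 with ABLIM1 in place of MTRNR2L1. The 64 had a median centred log2 fold change of -0.48 in the bins, and 19 of them had a centred adjusted p under 0.1. Each also kept an unadjusted p under 0.05, which their selection at far smaller p made nearly certain. Single regions below carry their deposited values unless centring is named. All lower calls other than the 8 named for the bins were lost there. They include those of SMAD3, PXN, SSH1, COL1A1, HSPG2, MYC, GPC1 and FOSB, with centred adjusted p (normal p of the centred value) from 0.0852 to 0.396. Whether the shift belongs to the treatment or to the libraries was not tested.

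**Figure D1:**
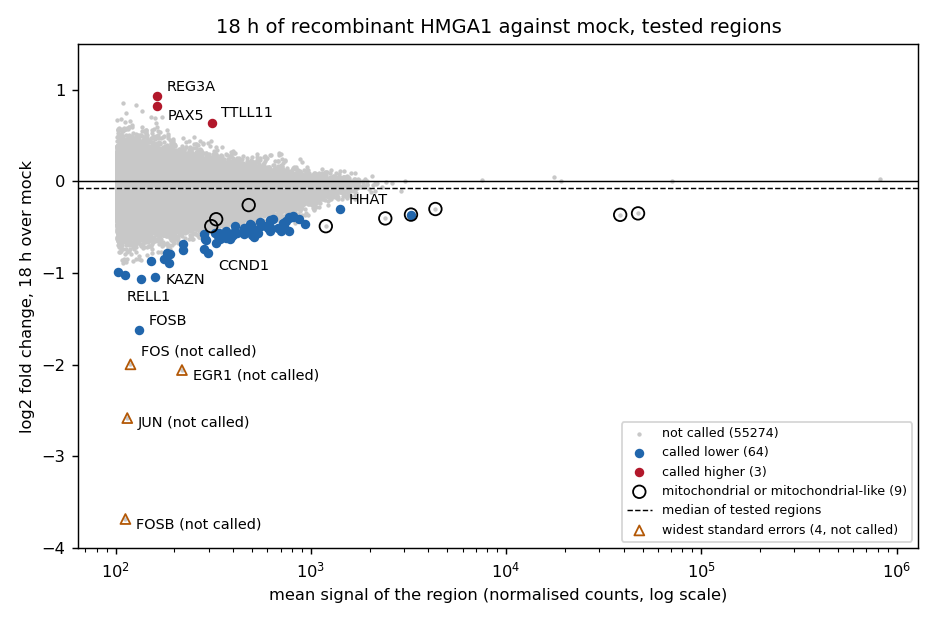
Log2 fold change of 18 h over mock (vertical) against the mean signal of each tested region (horizontal, log scale), as deposited; grey points were not called, blue ones were called lower (64) and red ones higher (3). The called lower regions follow the lower edge of the cloud at each signal level, and the 4 triangles below it (FOSB, JUN, EGR1 and FOS) have the widest standard errors and were not called.

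Regions of adhesion, matrix and cytoskeletal genes were among the losses as deposited. Of LIMD1, ABLIM1, PXN and SSH1, only LIMD1 kept its call after centring in bins. The smallest adjusted p of the comparison belonged to a region inside LIMD1 (chr3:45611492-45611993, 17.2 kb from the gene start), which encodes a LIM-domain scaffold of cell junctions and of the Hippo pathway. It fell by 0.60 ± 0.11 (log2, SE; adjusted p = 0.001) per the authors' deposited table, and its mean signal was 514. A region inside ABLIM1, which encodes an actin-binding LIM protein, fell by 0.78 ± 0.16 (adjusted p = 0.00421) per the authors' deposited table (chr10:114633195-114633696, 51.3 kb from the start). The focal adhesion adaptor paxillin had a region inside its gene PXN, 10.9 kb from the start, with a log2 fold change of -0.59 ± 0.14 (adjusted p = 0.0271) per the authors' deposited table. SSH1, which encodes a phosphatase that activates the actin-severing protein cofilin, fell by 0.53 ± 0.12 (adjusted p = 0.0108) per the authors' deposited table.

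Matrix genes gave 3 losses as deposited, of which only that of TGFBI kept its call after centring in bins. A region 26.9 kb from the start of TGFBI, which encodes a secreted adhesion protein induced by TGF-beta, fell by 0.54 ± 0.10 (adjusted p = 0.00155) per the authors' deposited table and lay outside every protein-coding span (chr5:136001488-136001989). COL1A1, the alpha-1 chain of type I collagen, had a region 7.89 kb from its start at -0.59 ± 0.13 (adjusted p = 0.0172) per the authors' deposited table. For HSPG2, the basement membrane proteoglycan perlecan, the authors' deposited table gives -0.59 ± 0.14 (adjusted p = 0.0264) at a region inside the gene. The signal transducer SMAD3, which carries TGF-beta signals to the nucleus, fell by 0.67 ± 0.14 (adjusted p = 0.00549) per the authors' deposited table at chr15:67098286-67098787, inside the gene.

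Genes of growth control and metabolism followed, and among those of this paragraph only CCND1 kept its call after centring in bins. CCND1 encodes cyclin D1, which drives cells through G1, and a region 129 kb from its start (chr11:69511481-69511982) fell by 0.73 ± 0.14 (adjusted p = 0.00353) per the authors' deposited table. MYC, the growth-promoting transcription factor, had 1 called region of its 38 tested, 74.6 kb from the start, at -0.43 ± 0.10 (adjusted p = 0.0271) per the authors' deposited table, while the region over the MYC start stood at -0.04 ± 0.12. The glucose transporter gene SLC2A1 had a called region 22.3 kb into the gene, at -0.51 ± 0.10 (adjusted p = 0.00421) per the authors' deposited table. IRS2, an adaptor of the insulin and IGF receptors, was lower at a region 362 kb away (-0.56 ± 0.12, adjusted p = 0.00641) per the authors' deposited table. FGFBP1 encodes a secreted carrier of fibroblast growth factors, and a region 32.2 kb from its start fell by 0.48 ± 0.10 (adjusted p = 0.00421) per the authors' deposited table. GPC1, a heparan sulphate proteoglycan of the cell surface, fell 65.1 kb from its start by 0.41 ± 0.10 (adjusted p = 0.0489) per the authors' deposited table.

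The deepest losses lay at regions of low signal, where the errors were also widest. A region inside FOSB, which encodes an AP-1 subunit, had the lowest called fold change, -1.62 ± 0.39 (a 3.08-fold loss, adjusted p = 0.0356) per the authors' deposited table, at a mean signal of 133. RELL1, which encodes a membrane protein, fell by 1.06 ± 0.22 (adjusted p = 0.00549) per the authors' deposited table (chr4:37661775-37662276, inside the gene). KAZN, which encodes the desmosome-associated protein kazrin, fell by 1.04 ± 0.20 (adjusted p = 0.00182) per the authors' deposited table, at a region inside the gene but 812 kb from the start to which it was assigned (chr1:14704777-14705278). UBE2E2, named for a ubiquitin-conjugating enzyme, fell by 1.02 ± 0.24 (adjusted p = 0.0331) per the authors' deposited table. The rest of the 12 lowest fold changes belonged to THRB, HIVEP3, INPP4B, DPYSL2, PLEKHF2, USP24, ABLIM1 and HSD3B1, from -0.99 to -0.75 in the authors' deposited table. At the other end, HHAT fell by only 0.30 ± 0.07 (adjusted p = 0.0356) per the authors' deposited table, at a mean signal of 1406.

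The remaining regions among the 12 smallest adjusted p were named for genes of varied function. KIAA1683 (now IQCN), a gene of an IQ-motif protein, had a region 0.218 kb from its start that fell by 0.54 ± 0.10 (adjusted p = 0.00155) per the authors' deposited table (chr19:18274727-18275228). KIF2B, a kinesin gene, was assigned a region 717 kb away that fell by 0.54 ± 0.10 (adjusted p = 0.00155) per the authors' deposited table. SLC25A48, a gene of the mitochondrial carrier family, fell by 0.63 ± 0.13 (adjusted p = 0.00421) per the authors' deposited table.

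Only 3 regions rose, all more than 100 kb from the gene start to which they were assigned. The region named for REG3A lies inside CTNNA2, the gene of the neuronal alpha-catenin (chr2:79393713-79394214), and stood at 0.93 ± 0.19 (a 1.91-fold gain, adjusted p = 0.00421) per the authors' deposited table. A region inside PAX5, the B-cell transcription factor gene, stood at 0.83 ± 0.18 (adjusted p = 0.0125) per the authors' deposited table (chr9:36928223-36928724). The other lies inside TTLL11, which encodes a tubulin polyglutamylase, at 0.64 ± 0.14 (adjusted p = 0.0115) per the authors' deposited table (chr9:121972430-121972931). None of the 3 depended on the centring, which moved them to 1.0, 0.89 and 0.72. The next 6 by p that were not called were named for ILDR1, SLC22A16, CABLES2, GALK1, RPS14 and SPRY2, at 0.69 to 0.85 with adjusted p from 0.0566 to 0.177 in the authors' deposited table.

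**Figure D2:**
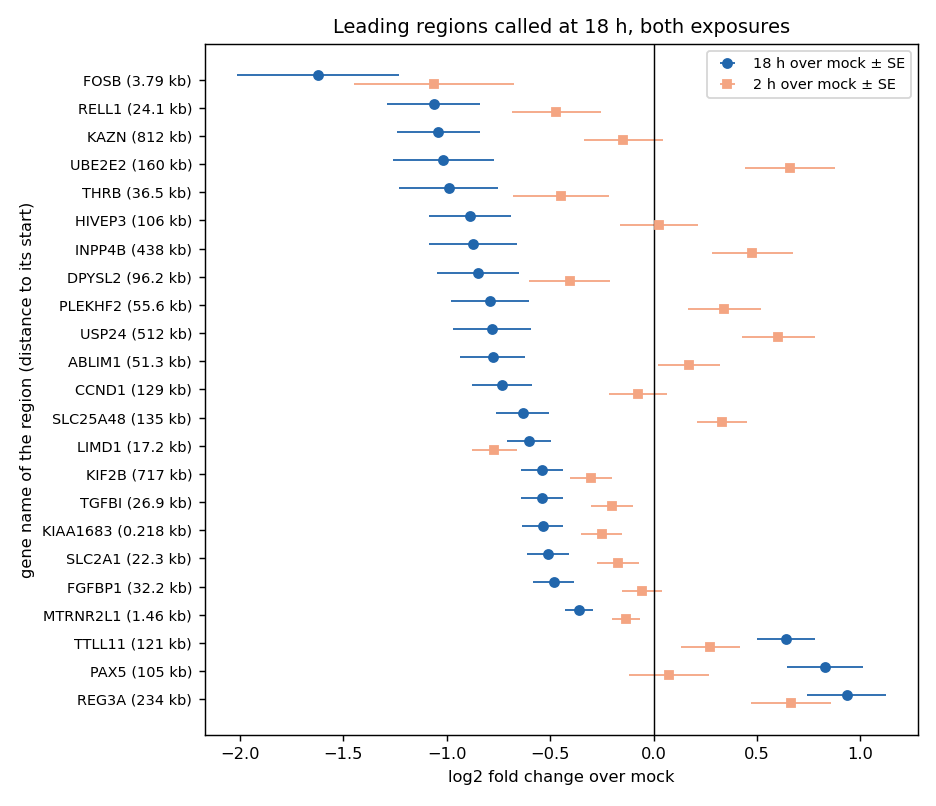
Log2 fold change over mock, with SE bars, of the 12 regions with the smallest adjusted p, the 12 with the largest absolute change and the 3 higher ones, at 18 h (blue circles) and 2 h (orange squares). Each label gives the gene name and the distance from its start; both exposures share the mock libraries. UBE2E2, INPP4B, USP24, PLEKHF2, SLC25A48 and ABLIM1 sit right of 0 at 2 h and left of it at 18 h, while LIMD1 and RELL1 sit left of 0 at both times.

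The direct comparison of 18 h with 2 h was read at the regions called against mock. All 64 lower regions were tested in it, and 36 of them were lower at 18 h than at 2 h (DESeq2, adjusted p under 0.05) per the authors' deposited table. None was higher. The background of that comparison was 2.98% lower and 0.498% higher of 108134 tested regions. Both comparisons use the same 18 h libraries, so the members were chosen partly on the values tested. That choice favours lower values at 18 h, so the counts cannot separate later losses from earlier ones. The median log2 difference of 18 h over 2 h was -0.43 (range -1.68 to 0.17) per the authors' deposited table. Against mock, the 2 h values of the 64 ran from -1.06 to 0.66 with a median of -0.15.

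Several regions were above mock at 2 h and below it at 18 h. UBE2E2 stood at 0.66 ± 0.22 after 2 h and -1.02 ± 0.24 after 18 h, with a direct difference of -1.68 ± 0.24 (DESeq2, adjusted p = 2.24e-09) per the authors' deposited table; its 2 h value was not called (adjusted p = 0.11). USP24 had 0.60 ± 0.18 (adjusted p = 0.0477) at 2 h and -0.78 ± 0.19 (adjusted p = 0.039) at 18 h in the authors' deposited table, so this region, 512 kb from the gene of a deubiquitinating enzyme, was called in opposite directions. The same held for HHAT (0.29 ± 0.07, adjusted p = 0.0106, then -0.30 ± 0.07) and for SEMA7A (0.32 ± 0.09, adjusted p = 0.038, then -0.39 ± 0.09) per the authors' deposited table. With either centring, USP24, HHAT and SEMA7A all lost the 18 h call. In the bins their adjusted p (normal p of the centred value) was 0.196, 0.383 and 0.264. The 2 h values were not centred, so the opposite calls hold only for the deposited scaling. HHAT encodes the acyltransferase of hedgehog proteins and SEMA7A a membrane-anchored semaphorin. For MYC the authors' deposited table gives 0.32 ± 0.10 at 2 h and a direct difference of -0.75 ± 0.10 (adjusted p = 8.54e-11). For HSPG2 the direct difference was -1.01 ± 0.14 (adjusted p = 1.94e-10) per the authors' deposited table.

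Other regions were already low at 2 h. LIMD1 stood at -0.77 ± 0.11 (adjusted p = 1.26e-08) after 2 h, and the difference between the times was 0.17 ± 0.11 (adjusted p = 0.681) per the authors' deposited table. One of the 2 CUEDC1 regions (42.9 kb from the start) had -0.77 ± 0.13 (adjusted p = 9.5e-06) at 2 h and -0.62 ± 0.13 at 18 h in the authors' deposited table. C12orf75, PXDN, MARCH10, DPYSL3 and ANAPC1 were likewise called lower at 2 h, with values from -0.75 to -0.42 in the authors' deposited table. A direct difference that misses the threshold does not show that the times were alike: its SE was 0.07 to 0.40 at these 64 regions.

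The immediate early genes, which are transcribed within minutes of stimulation, held the lowest fold changes of the tested regions. The 5 lowest values among all tested regions were named for FOSB (2 regions), JUN, EGR1 and FOS, and only the FOSB region described above was called. The other FOSB region, 7.17 kb from the start, stood at -3.68 ± 0.95 (adjusted p = 0.064) per the authors' deposited table. The authors' deposited table lists JUN at -2.58 ± 0.72 (adjusted p = 0.101, 4.20 kb away from its start), EGR1 at -2.06 ± 0.67 (adjusted p = 0.237, 3.92 kb) and FOS at -2.0 ± 0.55 (adjusted p = 0.0917, 4.60 kb). These 4 also had the widest SE of all 55341 tested regions, where the 99th percentile was 0.24, so the estimated spread between libraries was wider there than elsewhere. Their mean signals lay between 112 and 219, below that of the median tested region (225). At 2 h they stood at -1.87 ± 0.93, -0.69 ± 0.70, -1.35 ± 0.67 and -1.39 ± 0.54 in the same order, none called in the authors' deposited table. Which library was high or low there cannot be read from the deposited values.

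The regions nearest the starts of these genes were not called. The region over the JUN start had a mean signal of 1219 and stood at -0.06 ± 0.08 (adjusted p = 0.964) per the authors' deposited table. Near the starts of EGR1 (0.217 kb) and FOSB (1.08 kb), the authors' deposited table has -0.14 ± 0.08 (adjusted p = 0.74) and 0.07 ± 0.12 (adjusted p = 0.972). JUNB, another AP-1 subunit gene, had -0.21 ± 0.09 (adjusted p = 0.512) over its start, and the orphan receptor gene NR4A1 had -0.31 ± 0.10 (adjusted p = 0.252) per the authors' deposited table. FOS had no tested region over its start; its regions at 1.31, 1.97 and 2.52 kb had -0.37 ± 0.12, -0.74 ± 0.23 and -0.85 ± 0.24 (adjusted p = 0.262, 0.184 and 0.117) per the authors' deposited table. ATF3, a stress-induced partner of AP-1, had -0.15 ± 0.07 (adjusted p = 0.577) over its start in the authors' deposited table.

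Losses lay away from gene starts. Of the 7851 tested regions over the start of their named gene, 0 were called and 1.76% were lower at an unadjusted p under 0.05 in the authors' deposited table. From 1 base to 1 kb, 2 of 3058 regions were called (0.0654%), those of KIAA1683 and SYNC, and 3.34% were lower. At 1 to 10 kb the lower share was 7.98% (8 called, 0.104%). At 10 to 100 kb it was 8.86% (35 called, 0.152%) and at 100 to 500 kb 9.06% (15 called, 0.13%). Beyond 500 kb it was 5.19%, with 4 called (0.184%). The called shares beyond 1 kb were thus all near the 0.116% of all tested regions. The median log2 fold change varied far less, from -0.08 to -0.05 over these classes in the authors' deposited table. After centring in bins of mean signal the lower share ran from 0.28% over gene starts to 3.94% at 10 to 100 kb, and the median over gene starts became 0.02, so its sign depends on the scaling. SYNC, which encodes the intermediate filament protein syncoilin, had a region 0.199 kb from its start that fell by 0.42 ± 0.10 (adjusted p = 0.0337) per the authors' deposited table.

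The distance pattern of the lower share, though not of the median, was present at every level of signal. Regions of similar signal have similar precision. The tested regions were split into 5 equal groups by mean signal. In the group with the highest signal, 2.2% of the 4988 regions within 1 kb of a start were lower at an unadjusted p under 0.05, against 17% of the 4847 regions beyond 10 kb, with 2 and 25 called in the authors' deposited table. In the next lower group the shares were 2.27% and 13.2%, with 0 and 19 called (0.284% of the latter). In the group with the lowest signal they were 1.42% and 3.73%, with 0 and 2 called. The share within 1 kb thus stayed within 1.42 to 2.68% over the 5 signal groups, while the share beyond 10 kb grew with signal. Centred in bins, the shares of the highest group were 0.381% and 6.15%. The median fold change as deposited followed another course. In the group with the lowest signal it was lower within 1 kb (-0.079) than beyond 10 kb (-0.039). In the next higher group the medians were -0.067 and -0.062. In the other groups the median was lower beyond 10 kb, with -0.094 against -0.050 in the highest. Protein-coding spans held 37 of the 64 lower regions (57.8%), close to the 58.5% of all tested regions.

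**Figure D3:**
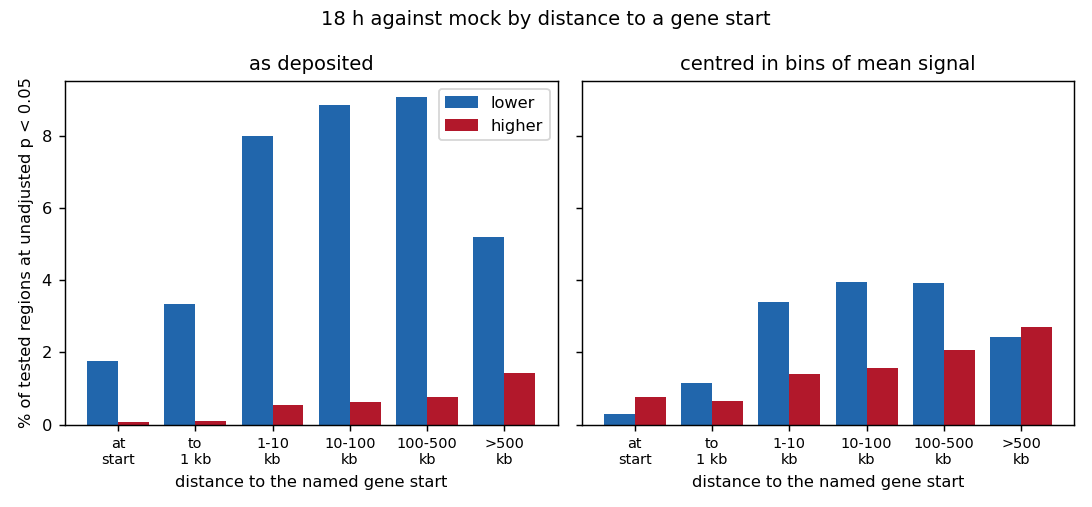
Share of tested regions lower (blue) and higher (red) at an unadjusted p under 0.05, in percent, by distance to the start of the named gene, as deposited (left) and after centring in bins of mean signal (right). As deposited the lower share grows from 1.76% over starts to 9.06% at 100 to 500 kb; after centring, higher regions outnumber lower ones over gene starts (0.764% against 0.28%).

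Within 1 kb of a start, 4 further regions were among the 6 lower ones with the smallest unadjusted p without being called. They were named for MT-CO1, COBL, CIRBP and PRKAR1A, with values from -0.62 to -0.36 and adjusted p from 0.0526 to 0.0697 in the authors' deposited table. COBL encodes an actin nucleator, CIRBP a cold-inducible RNA-binding protein and PRKAR1A a regulatory subunit of protein kinase A. The 6 higher ones within 1 kb were MSH4, TUSC1, POU2F3, GAP43, ZNF180 and PYGM, from 0.24 to 0.64 with adjusted p from 0.231 to 0.609 in the authors' deposited table.

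Regions beside a called loss were also low. Within 10 kb of the 64 lower regions there were 111 other tested regions around 48 of them, with a median of -0.19 in the authors' deposited table. Of the 111, 26 (23.4%) were lower at an unadjusted p under 0.05, against 7.32% of all tested regions, and 0 were higher. Centred in bins, the share was 11.7% against 3.13%. Around the ABLIM1 region 3 of 5 neighbours, around the SSH1 region 3 of 4 and around the 2 CUEDC1 regions 2 of 3 and 2 of 4 were lower at that level. The 4 neighbours of the TGFBI region had a median of -0.22 and none passed it.

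Of 1069 gene names with at least 10 tested regions, 988 had a negative and 81 a positive median log2 fold change as deposited. Among all tested regions 69.5% were negative, with a median of -0.07. The lowest median belonged to ITGB5, an integrin beta subunit, at -0.31 over 14 regions, 6 of them lower at an unadjusted p under 0.05 in the authors' deposited table. KRBOX4, STK4, AMOTL2, IQCJ-SCHIP1, NEDD9, FOS, EYA4, NEDD4 and SYNPO followed, down to a median of -0.26. STK4 encodes a Hippo pathway kinase, AMOTL2 an angiomotin that binds YAP and NEDD9 a focal adhesion scaffold. The largest number of such lower regions was 11 of 42 for IRS2, followed by 10 of 38 for SEPT9 (a septin gene), 10 of 21 for IQCJ-SCHIP1 and 9 of 38 for MYC in the authors' deposited table. Centred in bins, these counts became 7, 5, 6 and 5, and the 6 of ITGB5 became 2. The shares over all tested regions were 7.32% as deposited and 3.13% centred. The 10 highest medians ran from 0.07 to 0.16 and included those of KCNE1B, TUSC1, DHFRL1, ZNF184, RIPK2, COL27A1, ZBED9, CNTN6 and HIST1H2BL, and among the 10 only ZNF184, TUSC1 and KCNE1B had any region higher at an unadjusted p under 0.05. KCNE1B is a near-identical copy of KCNE1, and read assignment between them is uncertain. Regions of 1 gene are not replicates.

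The gene lists were read against the background of 7.32% lower as deposited and 3.13% after centring in bins. They were chosen with earlier results of these data known, so a share above the background is a description and not independent evidence. The AP-1 and immediate early list (21 genes) had the highest share. Of its 205 tested regions 41 (20%) were lower at an unadjusted p under 0.05, 1 was higher and the median was -0.14 in the authors' deposited table, and 11.2% were lower after centring. Its 2 called regions were those of MYC and FOSB (0.976%, against 0.116% of all tested regions). MYC gave 9, FOS 6, ATF3 5 and FOSB 4 of the 41. Targets and partners of YAP and TEAD, the transcription factors at the end of the Hippo pathway, had 35 of 181 regions lower (19.3%; 11% centred), a median of -0.15 and 0 called. Its nearest members to the threshold were AMOTL2 (-0.77 ± 0.19, adjusted p = 0.0566) and WWTR1, which encodes the YAP paralogue TAZ (-0.45 ± 0.12, adjusted p = 0.064) per the authors' deposited table. The 221 regions of TGF-beta ligands, SMADs and targets had 40 lower (18.1%; 9.05% centred), 7 each for TGFB2 and SMAD3, with a median of -0.15. TGFBI and SMAD3 were called (0.905%).

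Focal adhesion and LIM protein genes had 26 of 180 regions lower (14.4%; 6.67% centred) and 3 called, LIMD1, ABLIM1 and PXN (1.67%), with TNS3, a tensin, giving 6 of the 26. Actin and contractile genes had 20 of 134 lower (14.9%), 6 of these named for the actin cross-linker ACTN4, but 3.73% after centring, and 0 called. Integrin genes had 15 of 112 lower (13.4%; 5.36% centred), 6 of them named for ITGB5, and 0 called. Matrix and basement membrane genes had 28 of 223 lower (12.6%; 8.52% centred), COL5A1 and THBS1 giving 5 regions each. TGFBI, COL1A1 and HSPG2 were called (1.35%, against 0.116% of all tested regions), and of these only TGFBI kept its call in the bins. Genes of the undifferentiated or invasive melanoma state had 27 of 189 lower (14.3%; 6.88% centred), 7 of them for the hyaluronan receptor CD44, and 0 called. In that list EGFR had -0.48 ± 0.12 (adjusted p = 0.064) and the receptor kinase gene AXL had -0.46 ± 0.13 (adjusted p = 0.128) per the authors' deposited table.

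G1 regulators had 15 of 107 lower (14%; 9.35% centred), 12 of them named for MYC (9) or CCND1 (3), with those 2 genes called (1.87%, against 0.116% of all tested regions). HMG protein and uptake genes had 17 of 131 lower (13%; 3.82% centred) with GPC1 called (0.763%). NF-kB targets and cytokines had 9 of 83 lower (10.8%; 3.61% centred) and 0 called, LIF having the smallest p (-0.85 ± 0.23, adjusted p = 0.0775) per the authors' deposited table. Hypoxia and glycolysis genes had 9 of 86 lower (10.5%; 3.49% centred) with SLC2A1 called (1.16%). MAPK feedback and output genes had 20 of 240 lower (8.33%; 4.58% centred), 5 for the phosphatase gene DUSP5, with CCND1 called (0.417%). Melanocyte lineage and pigment genes had 5 of 88 lower (5.68%; 2.27% centred), 3 of them for MITF, and 0 called. Housekeeping genes had 3 of 64 lower (4.69%; 3.12% centred), a median of -0.05 and 0 called. The medians of the melanocyte and housekeeping lists became 0.04 and 0.02 after centring, so their sign depends on the scaling. All 20 housekeeping genes had a tested region within 1 kb of the start, in a list of 64 tested regions. In the AP-1 list 17 of 21 genes had one, among 205 tested regions. These are counts of genes, so the share of regions near starts was not compared.

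Markers of other cell types gave few regions. Keratinocyte markers had 3 of 22 regions lower (13.6%; 9.09% centred), fibroblast markers 2 of 34 (5.88%; 2.94%), endothelial markers 5 of 55 (9.09%; 3.64%) and immune markers 2 of 28 (7.14%; 3.57%). The only calls in these lists were the COL1A1 loss and the PAX5 gain. The median of the immune markers went from -0.06 to 0.02 with the centring, while those of the other 16 lists apart from melanocyte and housekeeping genes stayed below 0.

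**Figure D4:**
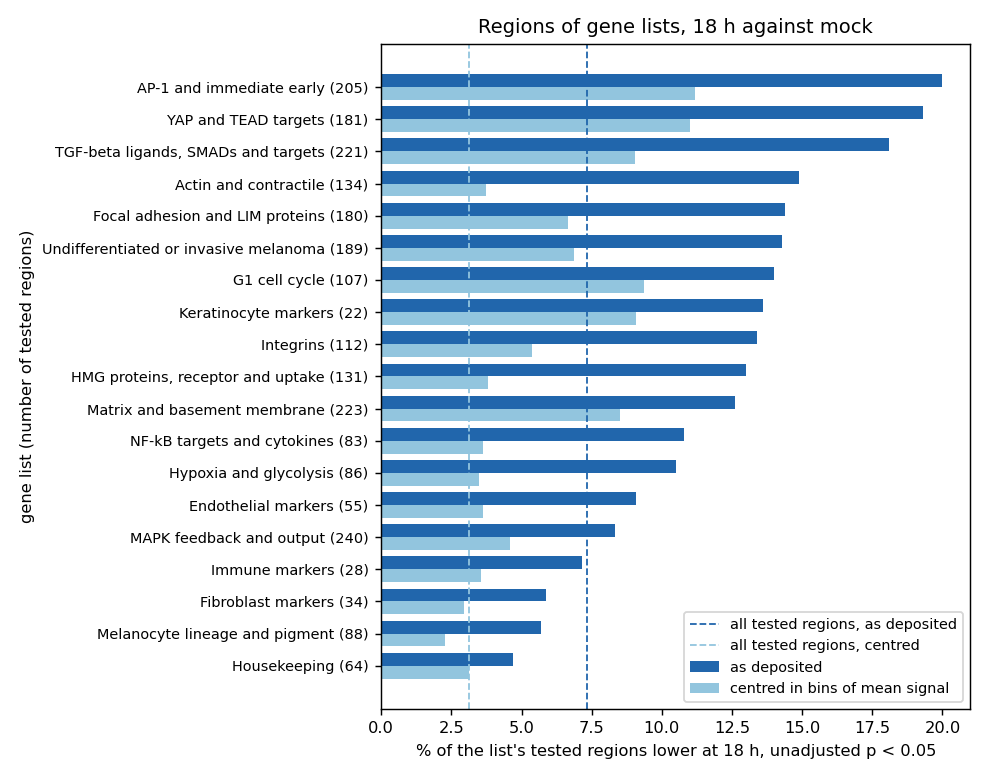
Share of the tested regions of each gene list that were lower at 18 h at an unadjusted p under 0.05, in percent, as deposited (dark) and after centring in bins of mean signal (light); the number of tested regions is in brackets and dashed lines give all tested regions. The AP-1, YAP and TEAD and TGF-beta lists reach 18.1 to 20% against 7.32%, and the housekeeping and melanocyte lists lie below the line. All lists were chosen with earlier results of these data known.

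Promoter sequence could be set beside the values where a RefSeq promoter window (GRCh38.p14, 250 bases before to 50 after a gene start) overlapped a tested region by at least 150 bases. This held for 12468 of 35116 windows, or 9621 with 1 window kept per region. The median fold change did not become lower with the A+T content of the promoter. In 5 equal groups ordered by A+T content, from 13 to 26.3% up to 42.3 to 74.7%, the median log2 fold changes were -0.08, -0.06, -0.05, -0.04 and -0.04 in the authors' deposited table. The mean signal was lower in both end groups (medians of 382 and 345) than in the middle (478 to 489). The share lower at an unadjusted p under 0.05 was 2.81% in the most GC-rich group, 1.40% in groups 3 and 4 and 4.68% in the most AT-rich group. Centred in bins, it was 0.519% in the first and 1.72% in the last group, where 1.72% were higher.

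The share of promoters with AP-1 and TEAD motifs was higher among those lower at an unadjusted p under 0.05, a comparison of shares with no test. The promoters were not matched for distance to the deposited gene start, and lower regions were more frequent away from such starts. The AP-1 type motif (TGANTCA, which is its own reverse complement) was in 52 of the 235 promoters lower at an unadjusted p under 0.05 (22.1%), against 6.56% of the 9377 that were neither lower nor higher and 7.71% of all 35116. The TEAD type motif (GGAATG, both strands) was in 50 of the 235 (21.3%), against 10.5% and 14%. The CRE type motif (TGACGTCA, its own reverse complement) was in 4.26%, against 3.52% and 1.85%, and a run of at least 8 A or T in 25.1%, against 19.5% and 36.9%. No searched motif contains another, but copies may overlap by a few bases. The median A+T content was 36% in the lower promoters and 34% in the others. Of the 667 promoters with the AP-1 type motif 7.8% were lower, against 2.04% of the 8954 without it, and their median A+T content was 43% against 33.3%. Centred in bins, 25% of 60 lower promoters had the AP-1 type motif against 6.8% of the 9475 that were neither, and 23.3% had the TEAD type against 10.7%. A match is a description and does not show that a factor binds there.

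The 8 sequences below are those with the smallest unadjusted p among the lower promoters with an AP-1 type motif at least 20 bases from either end of the part before the start. They show the motif (capitals) with 20 bases on each side, 5′ to 3′ on the strand of the RefSeq gene, and each is named for the gene of the deposited region.
ECE1 region, chr1:21261959-21262005, plus strand: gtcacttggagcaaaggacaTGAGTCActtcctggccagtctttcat
UMODL1 region, chr21:42040551-42040597, plus strand: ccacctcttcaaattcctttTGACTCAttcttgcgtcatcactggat
IQCJ-SCHIP1 region, chr3:159852974-159853020, plus strand: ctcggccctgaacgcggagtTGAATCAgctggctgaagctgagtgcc
SLC9A8 region, chr20:49775489-49775535, minus strand: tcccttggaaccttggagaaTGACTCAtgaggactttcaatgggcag
AIM1 region, chr6:106511787-106511833, plus strand: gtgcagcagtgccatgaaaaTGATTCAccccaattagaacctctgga
ATXN7L3B region, chr12:74402696-74402742, minus strand: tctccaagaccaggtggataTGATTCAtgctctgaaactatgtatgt
CD59 region, chr11:33722818-33722864, minus strand: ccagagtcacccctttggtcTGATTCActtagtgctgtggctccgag
KCNK1 region, chr1:233707587-233707633, minus strand: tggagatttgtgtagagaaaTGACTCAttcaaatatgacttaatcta
The deposited distance to the start of the named gene ran from 13.4 kb (CD59) to 150.9 kb (AIM1). The printed windows therefore lie at other RefSeq starts, several of them of genes with LOC names, and not at the start that gave the region its name. None of the 8 regions was called, and their fold changes ran from -0.47 to -0.28 with adjusted p from 0.0902 to 0.367 in the authors' deposited table. The motif centre varied, with TGACTCA in 3 of the sequences, TGATTCA in 3, TGAGTCA in 1 and TGAATCA in 1. TGACTCA and TGAGTCA are reverse complements, as are TGATTCA and TGAATCA.

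Among the called regions, 2 lay over a RefSeq promoter window. They are shown because they are the promoters that carry a called loss, together with that of IQCN, whose window ends 25 bases outside the called KIAA1683 region. The window of SYNC, the other gene with a called region within 1 kb of its start, lies further outside its region and is not printed. It is 25% A+T and holds 0 AP-1 type, TEAD type, CRE type or A/T-run matches. The 250 bases before the start are printed, with AP-1 type, TEAD type and A/T-run matches in capitals.
SMAD3, internal start, chr15:67098429-67098678, plus strand: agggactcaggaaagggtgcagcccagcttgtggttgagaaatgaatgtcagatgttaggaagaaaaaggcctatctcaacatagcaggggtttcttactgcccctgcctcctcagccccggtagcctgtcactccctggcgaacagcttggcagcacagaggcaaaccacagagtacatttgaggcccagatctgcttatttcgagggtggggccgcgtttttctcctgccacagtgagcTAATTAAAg
LALTOP, in the PXDN region, chr2:1625420-1625669, minus strand: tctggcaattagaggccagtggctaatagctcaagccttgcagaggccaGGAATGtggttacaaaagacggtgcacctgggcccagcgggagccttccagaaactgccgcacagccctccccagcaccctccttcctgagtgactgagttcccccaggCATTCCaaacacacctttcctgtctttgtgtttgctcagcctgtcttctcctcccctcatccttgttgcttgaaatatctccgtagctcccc
IQCN, chr19:18274453-18274702, minus strand: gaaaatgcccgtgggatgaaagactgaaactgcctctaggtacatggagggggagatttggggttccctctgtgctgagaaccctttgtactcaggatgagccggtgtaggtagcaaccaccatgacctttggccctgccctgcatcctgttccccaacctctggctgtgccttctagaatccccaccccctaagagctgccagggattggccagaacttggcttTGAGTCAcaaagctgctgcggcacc
The SMAD3 window is 47.3% A+T and holds 1 run of at least 8 A or T close to an alternative start inside the gene, while the deposited distance of 39.2 kb refers to another start. The LALTOP window (43.3% A+T) holds 2 TEAD type matches, 1 on each strand, at a region that fell by 0.53 ± 0.11 (adjusted p = 0.00549) per the authors' deposited table. The IQCN window (43.7% A+T) holds 1 AP-1 type match near the start.

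**Figure D5:**
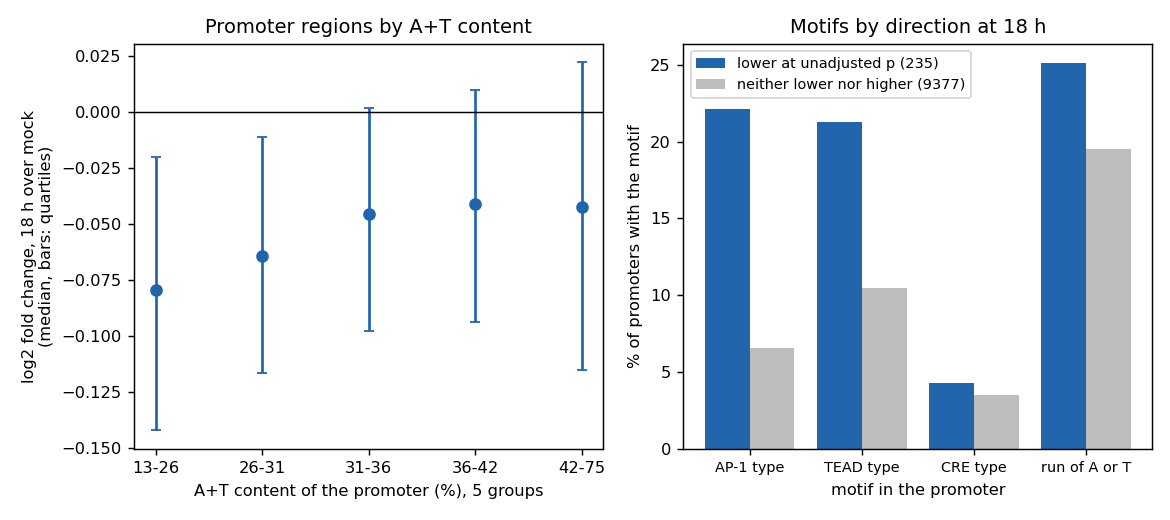
Left, median log2 fold change of 18 h over mock of promoter regions in 5 groups of A+T content, with bars from the lower to the upper quartile; right, percent of promoters holding each motif type among those lower at an unadjusted p under 0.05 (235) and those neither lower nor higher (9377). The AP-1 type bars stand at 22.1% and 6.56%, and the A+T groups differ by less than the width of their quartile bars.

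HMGA1 itself had 4 tested regions, none of them called. The region over its start stood at 0.01 ± 0.17 (adjusted p = 0.999) per the authors' deposited table, and the other 3 lay between -0.08 and 0.13. These values concern the cells' own gene and not the added protein, whose uptake is not measured by this assay.

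Regions of mitochondrial sequence were lower as a set, which was noticed after the values were seen. The 9 regions on the mitochondrial genome (MT-CO1 and MT-CYB), at the nuclear MTRNR2L genes that copy a mitochondrial ribosomal RNA, and near the start of chromosome 1 (3 regions named OR4F16) had log2 fold changes from -0.49 to -0.26 in the authors' deposited table, all with an unadjusted p under 0.05. One MTRNR2L1 region was called, at -0.36 ± 0.07 (adjusted p = 0.00155) per the authors' deposited table, with a mean signal of 3260. MT-CYB, with a mean signal of 47418, stood at -0.35 ± 0.09 (adjusted p = 0.0741) per the authors' deposited table. The 2 h values of the 9 ran from -0.30 to -0.10. The 20 other regions with the highest signal lay between -0.11 and 0.06, and 0 of them were called. Near-identical copies can share reads, so the 9 regions are not independent and the MTRNR2L1 call is uncertain. Without the 9, 63 regions were called lower.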

How the data were processed

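ATAC-seq libraries of A375 cells in 3 groups of 2 (mock, 2 h and 18 h of recombinant HMGA1) were compared through the authors' deposited tables on hg38. Per the submitters' processing notes, reads were demultiplexed with bcl2fastq 2.17 and DESeq2 was used; the aligner, peak caller, read counter and any Tn5 shift are not given in the sources used here. Each deposited row gives a mean signal (normalised coverage of the region over the 6 libraries), a log2 fold change with its SE, the Wald score (the fold change divided by its SE), a p-value with its adjusted p, and a gene start by name and distance; 0 columns hold values of 1 library, so the depth is unknown. edgeR had been planned for read counts and cannot take such values, so the authors' DESeq2 Wald tests were used as they stand. Region starts and ends are printed as deposited, and a start may differ by 1 base.

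Repeat rows of a region (6522 of 232956) were left out. Regions with a deposited adjusted p of exactly 1 under a mean signal of 101 count as untested; adjusting the other 55341 p-values by Benjamini-Hochberg gave back the deposited values to within 4.99e-14. A region was called at an adjusted p under 0.05. Fold changes were also centred on the median tested region and on the median of 20 bins of mean signal, with a normal p from the centred value over its SE, adjusted anew; the script was tested on simulated data. Of 19050 gene names, 18341 matched RefSeq (GRCh38.p14), 936 through an older name. Python 3.11.15, numpy 2.4.6, pandas 2.3.3 and scipy 1.17.1 were used.

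Full statistics were given for the 12 called regions with the smallest adjusted p, the 12 with the largest absolute change and all higher calls. Within 1 kb of a start, all called regions and the 6 lower and 6 higher with the smallest p were named. From each of 19 gene lists the called members, or else the 2 with the smallest p, were eligible, as were the 10 lowest and 10 highest gene medians and HMGA1. Other regions named with values were chosen after their values were seen. Some eligible items are left unreported. The comparison, the members and the gene lists were chosen with earlier results of these data known. A gene name says which start a region was assigned to, not that it regulates that gene. No set or enrichment test was run.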

Additional observations from a re-analysis of the deposited data

Results flagged for a closer look

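The named regions listed next stood out because their effect against mock differed between 18 h and 2 h, by the direct DESeq2 test of both exposures in the authors' deposited table (adjusted p under 0.05, log2 difference of 18 h over 2 h in brackets). Most were named for their 18 h values against mock, and the same 18 h libraries enter the direct test, which favours such differences. Among the 64 regions called lower at 18 h, the difference ran from -1.68 to -0.89 at UBE2E2 (-1.68), USP24 (-1.38), INPP4B (-1.35), PLEKHF2 (-1.13), HSPG2 (-1.01), SLC25A48 (-0.96), RASL12 (-0.95), ABLIM1 (-0.95), HIVEP3 (-0.91), SSH1 (-0.90), KAZN (-0.89) and FAM84B (-0.89). It ran from -0.75 to -0.56 at PXN (-0.75), MYC (-0.75), SEMA7A (-0.71), S100A10 (-0.70), SYNC (-0.70), CLSTN2 (-0.66), CCND1 (-0.66), ABL1 (-0.63), MISP (-0.61), GPC1 (-0.61), COL1A1 (-0.60), HHAT (-0.59) and TEX35 (-0.56). Smaller differences were found at NEK2 (-0.45), CUEDC1 (-0.45), FGFBP1 (-0.43), MAPK8IP3 (-0.40), PKP1 (-0.39), WISP2 (-0.37), DCAF12L1 (-0.35), SLC2A1 (-0.34), TGFBI (-0.34), NENF (-0.32) and MTRNR2L1 (-0.23).

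Among named regions not called at 18 h, the exposures differed in the authors' deposited table at AXL (-0.84), KRT5 (-0.76), LIF (-0.74), EGFR (-0.67), AMOTL2 (-0.64), CDH1 (-0.58), COBL (-0.57) and YWHAZ (-0.50). EGFR and AXL, receptor kinase genes of the undifferentiated melanoma state, had 0.19 ± 0.12 and 0.38 ± 0.13 at 2 h. The region named for YWHAZ, a housekeeping gene, lay 74.3 kb from its start.

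The difference was positive at PAX5 (0.75) and GALK1 (0.75). The GALK1 region was not called against mock at 18 h (0.71 ± 0.20, adjusted p = 0.0967) in the authors' deposited table. No group had enough libraries for a check of single outlying libraries.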

How the results depend on the processing

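The 64 lower calls became 23 at an adjusted p under 0.01 and 169 at 0.1, 8 with either centring, 32 with no filter on mean signal and 102 among regions at or above the median signal. The 3 higher calls became 1 at 0.01, 7 at 0.1 and 1 among the regions of high signal, and stayed 3 with either centring and with no filter. Counting every deposited row gave 64 and 3. The bulk shift nearly vanished without the filter, where the median was -0.0016, against -0.07 as tested and -0.08 at or above the median signal. It is 0 by construction when centred. Of the lower calls, 3.12% lay within 1 kb of a gene start and 6.25% within 2 kb, and 12.5% of the 8 centred ones within 1 kb. The direct difference between 18 h and 2 h passed at 37 of the 67 called regions, and at 38 after centring on the median. The lowest minus the highest A+T group of promoters was -0.04 in 5 groups and -0.03 in 10. The share of lower promoters with an AP-1 type motif went from 22.1% to 25% with the centring, an alternative chosen after seeing the data, as was leaving out mitochondrial-like regions. Of the 67 called regions, 56 lost their call with each centring, MTRNR2L1 only with the median and ABLIM1 only with the bins, and none changed sign. No paired analysis was possible because the deposited tables hold no values of single libraries; for the same reason leaving out a library and TMM scaling were not run. The unknown depth and 2 libraries a group limit all errors given here.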

Other observations

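A stretch of chromosome 1 from 201 to 213 Mb, picked after the values were seen, held 6 of the 64 lower calls (PKP1, LGR6 with 2 regions, HHAT, NEK2 and NENF) among its 605 tested regions. Of all tested regions 0.116% were called lower. The edges of the stretch were set by the PKP1 and NENF calls, so a raised number of lower regions in it is built in. In it 13.4% of the regions were lower at an unadjusted p under 0.05, against 8.88% on the whole of chromosome 1, and the median log2 fold change was -0.07 in both, in the authors' deposited table. PKP1 encodes the desmosomal protein plakophilin 1 and LGR6 a receptor for R-spondins. The medians of chromosomes 1 to 22 and X ran from -0.09 to -0.04.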
